A study of Mus musculus with 32 samples.

Results

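The myosin light chain genes of striated muscle and a gene for a light chain kinase were followed through all 8 groups of a mouse RNA-seq series. These 7 genes were chosen by name from 43035 in the table. They are the essential light chain genes Myl1, Myl3, Myl4 and Myl6b, the regulatory light chain genes Mylpf and Myl2, and Mylk2. The series compared mice carrying an inducible human DUX4 gene, the transcription factor gene linked to facioscapulohumeral muscular dystrophy, with mice labelled WT, and the treatment protocol gives doxycycline chow for both. Whole muscle was taken at 2 weeks (WT.2Weeks, n = 5; IDUX.2Weeks, n = 5) and at 16 weeks (WT.16Weeks, n = 4; IDUX.16Weeks, n = 4). Cells sorted from hind limb muscle were CD31+ endothelial cells (CD31WT, n = 3; CD31DUX, n = 4) and PDGFRa+ fibro-adipogenic progenitors, or FAPs (PDGWT, n = 3; PDGDUX, n = 4), with 75000 cells per sample. The labels give no age, strain, sex, named muscle or promoter for the transgene, no time for the sorted cells, and no pooling. They do not say whether samples of a group came from separate mice, so the p-values measure the spread between these samples only.

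In the sarcomere, the contractile unit of muscle, each myosin heavy chain holds 1 essential and 1 regulatory light chain on its lever arm. The essential chain stiffens the lever and touches actin, and the regulatory chain tunes the force when a calcium-calmodulin kinase phosphorylates it. Fast fibres use the products of Myl1 and Mylpf, slow fibres and the heart ventricle those of Myl3 and Myl2, and embryonic muscle and the heart atrium that of Myl4. Mylk2 encodes the skeletal muscle light chain kinase, which is most active in fast fibres. Myl6b encodes an essential chain found in slow muscle and in non-muscle cells. In muscle that is being rebuilt, embryonic forms are known to return for a time.

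On the mouse genome (GRCm38), Myl1 spans chromosome 1 from 66924295 to 66945404 on the minus strand, and its 2 protein forms, made from separate starts, are not told apart in counts per gene. Myl3 spans chromosome 9 from 110741861 to 110769798 on the plus strand and overlaps Pth1r. Myl4 spans chromosome 11 from 104550663 to 104595753 on the plus strand and overlaps antisense and pseudogene models, and Myl6b spans chromosome 10 from 128494157 to 128498685 on the minus strand. Of the regulatory chains, Mylpf spans chromosome 7 from 127208890 to 127214298 and Myl2 chromosome 5 from 122100951 to 122113472, both on the plus strand, and Myl2 overlaps Ccdc63. Mylk2 spans chromosome 2 from 152911352 to 152923068 on the plus strand. Whether counting used strand is not given in the sources used here, so reads of overlapping genes may be shared.

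Upstream stretches of 3 genes are printed as examples: the fast Mylpf, the slow Myl3, and Myl6b, whose product is found in slow muscle and outside muscle. Each runs from 250 to 41 bases before the RefSeq start site (GRCm38.p6, strand of the gene, 5' to 3'), at chr7:127211358-127211567 (plus), chr9:110763428-110763637 (plus) and chr10:128498726-128498935 (minus). The RefSeq starts of Mylpf and Myl3 lie 2718 and 21817 bases inside the gene spans given above, so these stretches fall within those spans. Capitals mark CANNTG, the core that muscle factors such as MyoD and myogenin bind, and the CArG box, bound by serum response factor.
Mylpf: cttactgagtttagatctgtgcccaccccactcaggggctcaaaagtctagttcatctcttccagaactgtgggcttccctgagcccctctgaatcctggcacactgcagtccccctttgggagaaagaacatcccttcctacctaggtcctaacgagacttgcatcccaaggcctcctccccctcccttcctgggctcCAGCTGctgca
Myl3: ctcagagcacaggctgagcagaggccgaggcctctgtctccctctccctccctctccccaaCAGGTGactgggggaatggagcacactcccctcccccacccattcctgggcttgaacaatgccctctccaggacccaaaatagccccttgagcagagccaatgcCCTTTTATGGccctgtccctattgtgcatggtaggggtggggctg
Myl6b: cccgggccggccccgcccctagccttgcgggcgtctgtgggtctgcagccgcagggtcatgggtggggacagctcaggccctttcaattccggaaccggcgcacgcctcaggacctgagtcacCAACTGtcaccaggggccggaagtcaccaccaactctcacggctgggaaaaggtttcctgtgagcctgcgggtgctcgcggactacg
The Mylpf stretch holds CAGCTG 51 bases before the start, and 10.8% of 32851 mouse windows of the same length hold that motif. CAGCTG also lies 224 bases before the Myl1 start and 130 bases before a start of the slow Myl2, so it is not particular to Mylpf. That Myl2 start lies 7762 bases before the gene span given above, and the stretch of another Myl2 start holds no CAGCTG. The stretch of the embryonic Myl4, not printed, holds no CANNTG and no CArG box. A CArG box lies 85 bases before the Myl3 start, against 1.24% of windows with one. CANNTG is palindromic and is in 60.7% of windows, so its presence sets none of these genes apart. Mylk2 had no entry. Motifs were searched on both strands, CAGCTG is a case of CANNTG, and a match is a description of the letters only.

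The libraries held 6071276 to 20666816 expected counts. Levels are CPM, the counts of a gene relative to the library total after scaling by trimmed mean of M values (TMM), and differences are log2 changes ± SE, called at a Benjamini-Hochberg adjusted p under 0.05 over all genes tested (edgeR). Whole-muscle libraries at 2 weeks fell into 2 sets by the body-position gene Hoxd8: replicates 1 to 3 of both genotypes were at 51.2 to 73.4 CPM with Hoxc10 at 0 to 0.0917, and replicates 4 and 5 were at 4.49 to 5.56 CPM with Hoxc10 at 58.4 to 77.9. The 16-week libraries expressed both genes (Hoxd8 22.7 to 51.4 CPM, Hoxc10 39.7 to 82.0), so time and the muscles sampled cannot be told apart between 2 and 16 weeks. WT.16Weeks replicate 4 had Xist at 1.18 CPM, against 142 CPM or more in every other whole-muscle library. WT.16Weeks replicate 1 had the highest satellite cell marker sum of all 18 (106 CPM) and red cell markers at 0.651 CPM, against 70.5 CPM or more elsewhere.

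Per kilobase of the longest coding transcript, the fast pair dominated every whole-muscle group. In WT.2Weeks, Mylpf stood at 9515 ± 3045 CPM per kb and Myl1 at 7081 ± 677 (SD, n = 5), with overlapping ranges. Below them came Mylk2 at 246 ± 79.7, Myl3 at 119 ± 43.3 and Myl2 at 60.8 ± 55.8, and then Myl4 at 10.9 ± 9.97 and Myl6b at 7.03 ± 3.48 CPM per kb. In IDUX.2Weeks Myl1 (6888 ± 1253 CPM per kb) and Mylpf (6154 ± 2135) again overlapped. At 16 weeks on this length the slow pair ranked above the kinase: WT.16Weeks had Myl1 at 4406 ± 2243, Mylpf at 3749 ± 1171, Myl2 at 821 ± 186, Myl3 at 552 ± 173 and Mylk2 at 315 ± 59.4 CPM per kb (n = 4). IDUX.16Weeks had Myl2 at 896 ± 305 and Myl3 at 635 ± 183 CPM per kb, whose ranges overlapped, above Mylk2 at 89.0 ± 27.6 and Myl4 at 61.5 ± 19.3, whose ranges overlapped too. Several of these ranks depend on the gene length. Per kilobase of merged exons, Myl3 in WT.16Weeks stood at 253 ± 79.5 and Myl2 at 374 ± 84.8, both overlapping Mylk2 at 315 ± 59.4. In IDUX.16Weeks the slow pair (Myl2 408 ± 139, Myl3 291 ± 84.0) stayed above Mylk2, and Myl4 dropped to 12.5 ± 3.93, apart from Mylk2. On that length Mylpf also ranked above Myl1 in IDUX.2Weeks and WT.16Weeks, with overlapping ranges.

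**Figure D1:**
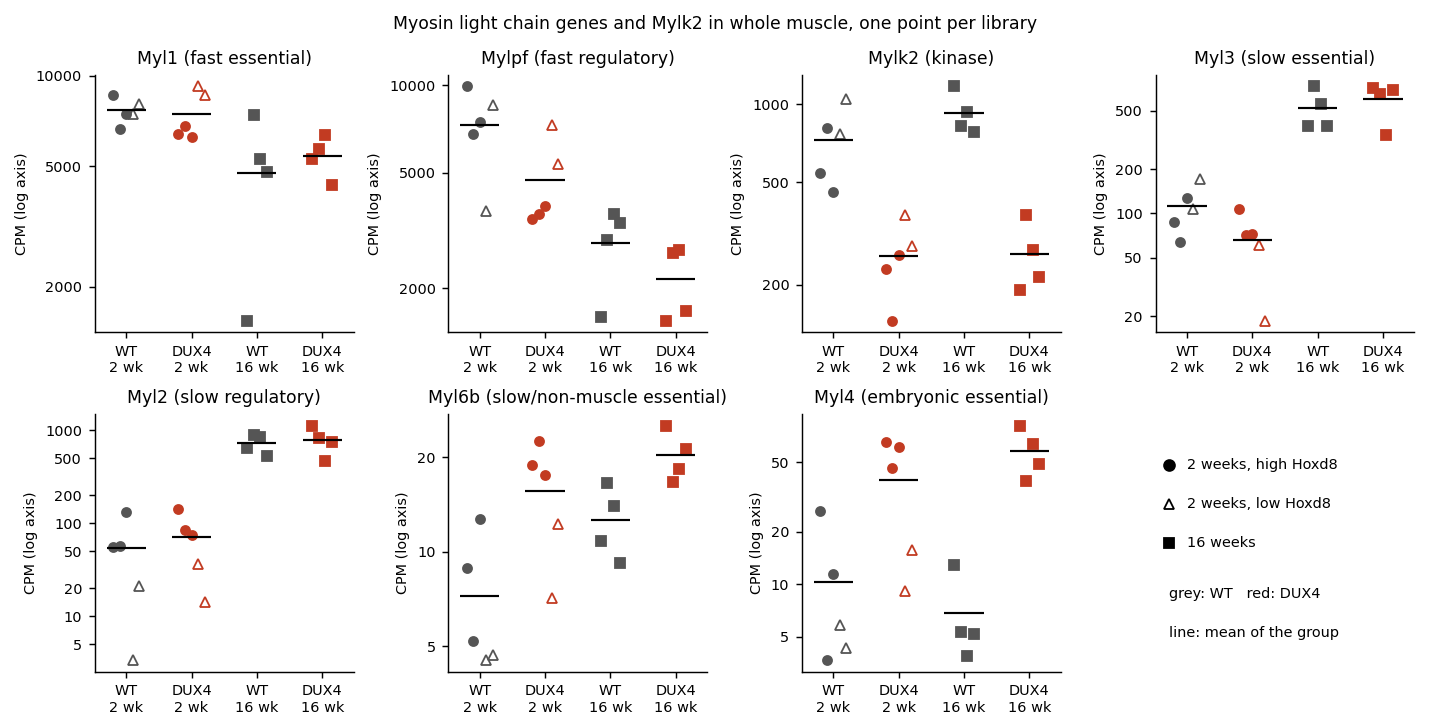
Level (CPM, log axis) of each of the 7 genes in the 18 whole-muscle libraries, one point per library, with the mean of each group as a line. Mylk2 is lower in each DUX4 library than in any WT library of the same time, Myl4 is high in IDUX.16Weeks, and Myl2 and Myl3 are high at 16 weeks in both genotypes.

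With DUX4 at 2 weeks, the kinase gene Mylk2 fell and the embryonic Myl4 and the slow and non-muscle Myl6b rose, while neither the fast nor the slow pair passed the test. Of the 7 genes, 3 were called, 2 higher and 1 lower. Across the 15396 genes tested, 17.6% were called (11.2% higher, 6.47% lower). The median log2 difference of the 7 was -0.04, against -0.01 over all genes tested.

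Mylk2 was at 542, 808, 457, 770 and 1052 CPM in WT.2Weeks replicates 1 to 5 and at 230, 145, 260, 372 and 282 CPM in IDUX.2Weeks. Every DUX4 library lay below every WT library. The change was -1.49 ± 0.26 (adjusted p = 0.000815), from 726 ± 235 to 258 ± 82.2 CPM. Its size held in both sets of libraries, at -1.52 ± 0.27 in the high-Hoxd8 set (adjusted p = 0.00923) and -1.50 ± 0.24 in the low-Hoxd8 set, where 2 libraries per genotype left it uncalled (0.0952).

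Myl4 was at 26.2, 3.68, 11.5, 5.81 and 4.33 CPM in WT.2Weeks and at 65.3, 46.5, 60.9, 9.12 and 15.7 CPM in IDUX.2Weeks. The 3 high-Hoxd8 DUX4 libraries exceeded all WT libraries, and the 2 low-Hoxd8 ones exceeded those of their own set but not WT replicate 1. Myl4 rose by 1.93 ± 0.59 (adjusted p = 0.0327), from 10.3 ± 9.40 to 39.5 ± 25.8 CPM. This call was lost in 7 of 10 refits without 1 library (without IDUX.2Weeks replicate 1, 2 or 3 or WT.2Weeks replicate 2, 3, 4 or 5), with a highest adjusted p of 0.0842. It was also lost when only the 2-week groups were fitted (0.0739) and in either Hoxd8 set alone (0.0804 and 0.186).

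Myl6b was at 8.89, 5.20, 12.7, 4.52 and 4.71 CPM in WT.2Weeks and at 18.9, 22.5, 17.6, 7.11 and 12.3 CPM in IDUX.2Weeks. Within each Hoxd8 set, the DUX4 libraries were above the WT libraries, while over both sets the groups overlapped. It rose by 1.12 ± 0.32 (adjusted p = 0.0217), from 7.21 ± 3.57 to 15.7 ± 6.04 CPM. The Myl6b call was lost in 5 of 10 refits without 1 library (IDUX.2Weeks replicate 1 or 2, WT.2Weeks replicate 2, 4 or 5), with a highest adjusted p of 0.0705, and when only the 2-week groups were fitted (0.0544).

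The fast essential gene Myl1 was at 8624, 6667, 7476, 7473 and 8067 CPM in WT.2Weeks and at 6403, 6795, 6262, 9214 and 8590 CPM in IDUX.2Weeks. The groups overlapped, at a difference of -0.04 ± 0.27 (adjusted p = 0.944), and scaling by library totals gave 0.28. Mylpf, its regulatory partner, was at 9929, 6789, 7497, 3691 and 8538 CPM in WT.2Weeks and at 3456, 3605, 3838, 7300 and 5369 CPM in IDUX.2Weeks. The 3 high-Hoxd8 DUX4 libraries lay below the 3 WT libraries of their set, while in the low-Hoxd8 set the WT libraries were the lowest and the highest. Over all libraries the Mylpf difference was -0.63 ± 0.29 (adjusted p = 0.15), and it was called without IDUX.2Weeks replicate 4 (-0.84, 0.0462). In the high-Hoxd8 set alone it was -1.16 ± 0.17 (0.00334), and in the low-Hoxd8 set 0.030 ± 0.45 (0.98).

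The slow genes were sparse at 2 weeks. Myl3 was at 87.6, 64.2, 128, 107 and 171 CPM in WT.2Weeks and at 107, 70.8, 72.2, 61.1 and 18.6 CPM in IDUX.2Weeks, a difference of -0.76 ± 0.36 (adjusted p = 0.163). Myl2 was at 56.1, 57.1, 133, 3.38 and 21 CPM in WT.2Weeks and at 144, 85.2, 75.4, 36.7 and 14.3 CPM in IDUX.2Weeks, a difference of 0.40 ± 0.66 (0.731). For Myl2 each low-Hoxd8 library lay below each high-Hoxd8 library of either genotype, and for both genes WT and DUX4 overlapped.

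At 16 weeks with DUX4, Mylk2 again fell and Myl4 again rose, and none of the other 5 genes passed the test. Thus 2 of 7 were called (1 higher, 1 lower), against 26.6% of the 15396 genes tested (14.1% higher, 12.5% lower). The median log2 difference was 0.18 over the 7 genes and 0.01 over all genes tested. Scaling by library totals instead of TMM moves the median of all genes by 0.34 at 2 weeks and 0.35 at 16 weeks, and takes the higher share of all calls from 63.3% to 92.7% and from 52.9% to 89.7%. The directions of Mylk2 and Myl4 stood under it: Mylk2 was then at -1.18 and -1.50 and Myl4 at 2.31 and 3.41.

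Myl4 was at 12.9, 5.35, 3.90 and 5.21 CPM in WT.16Weeks and at 80.9, 38.8, 63.1 and 49.0 CPM in IDUX.16Weeks. The groups did not overlap, the lowest DUX4 library being above the high WT replicate 1. It rose by 3.07 ± 0.69 (adjusted p = 0.00416), and the mean went from 6.85 ± 4.11 to 58.0 ± 18.2 CPM. Without the WT.16Weeks libraries in doubt, and in each refit without 1 library, the call stood (highest adjusted p 0.0171).

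Mylk2 was at 1176, 828, 934 and 784 CPM in WT.16Weeks and at 190, 373, 273 and 214 CPM in IDUX.16Weeks. Its groups were also apart, with every DUX4 library under every WT one. The change was -1.83 ± 0.30 (adjusted p = 0.000379), from 931 ± 175 to 263 ± 81.5 CPM, and the highest adjusted p in a refit without 1 library was 0.00219.

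Myl6b was at 10.8, 16.6, 14 and 9.24 CPM in WT.16Weeks and at 25.3, 16.8, 18.4 and 21.3 CPM in IDUX.16Weeks. These groups touched without overlapping, yet the difference of 0.69 ± 0.35 missed the threshold (adjusted p = 0.154), and reached it when only the 16-week groups were fitted (0.0489). Myl1 was at 1544, 7410, 5306 and 4809 CPM in WT.16Weeks and at 5283, 5691, 6355 and 4346 CPM in IDUX.16Weeks (0.18 ± 0.31, adjusted p = 0.699). The low WT value is that of replicate 1, and without it the Myl1 difference was -0.11. Mylpf was at 1589, 2940, 3592 and 3366 CPM in WT.16Weeks and at 1546, 2645, 2714 and 1670 CPM in IDUX.16Weeks (-0.42 ± 0.33, adjusted p = 0.361).

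The slow pair was abundant in both genotypes at 16 weeks. Myl3 was at 392, 731, 555 and 389 CPM in WT.16Weeks and at 708, 644, 341 and 688 CPM in IDUX.16Weeks (0.20 ± 0.40, adjusted p = 0.749). Myl2 was at 649, 884, 849 and 536 CPM in WT.16Weeks and at 1129, 836, 469 and 752 CPM in IDUX.16Weeks (0.13 ± 0.73, adjusted p = 0.924). For Myl2 the DUX4 group held both the highest and the lowest library, and for Myl3 the highest was WT and the lowest DUX4.

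**Figure D2:**
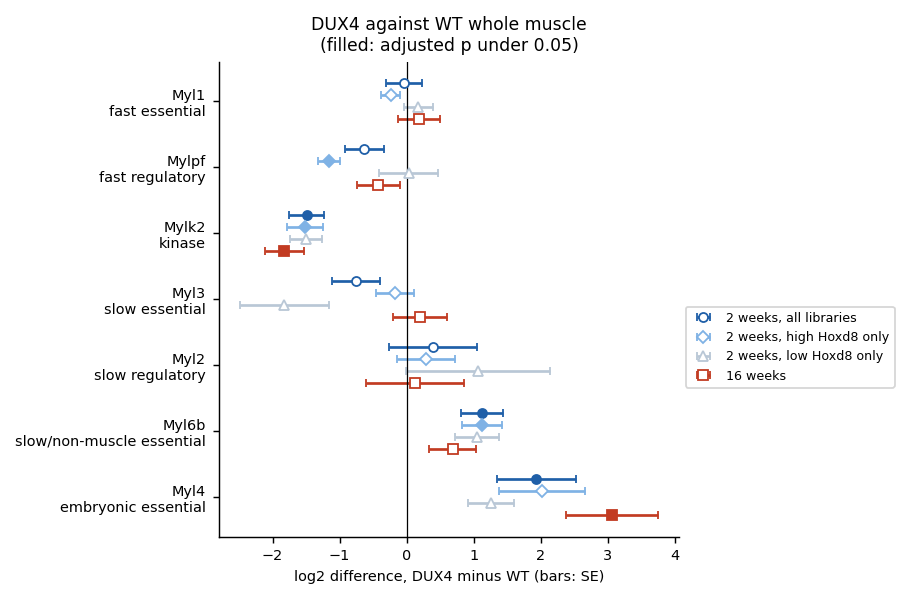
Log2 difference, DUX4 minus WT, with SE bars, for each gene at 2 weeks (all libraries, high-Hoxd8 set, low-Hoxd8 set) and at 16 weeks; filled symbols passed the adjusted p of 0.05. Mylk2 lies between -1.83 and -1.49 throughout, Myl4 between 1.26 and 3.07, and Mylpf at 2 weeks lies at -1.16 in one set and 0.03 in the other.

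Whether the DUX4 effect differed between the times was tested directly as an interaction. None of the 7 was called, against 0.299% of genes (0.188% higher, 0.11% lower; the higher share of calls was 63%, and 81.8% with library totals alone). The difference of effects was 1.13 ± 0.87 for Myl4 (adjusted p = 0.513), -0.33 ± 0.38 for Mylk2 (0.676), -0.43 ± 0.47 for Myl6b (0.651) and 0.96 ± 0.54 for Myl3 (0.363), and a miss does not show that the effects were equal. No member had an unadjusted p under 0.05 there, and DESeq2 also called none.

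Other genes of the contractile apparatus were taken from lists by role. Counts of calls in these lists are to be read against the shares of all genes tested. At 2 weeks 11.2% were called higher and 6.47% lower, and at 16 weeks 14.1% and 12.5%. Of 9 fast fibre protein genes, 9 were lower with DUX4 at 2 weeks and 7 at 16 weeks, with medians of -0.89 at both times. Actn3, which encodes the fast Z-disc actinin, changed by -1.44 ± 0.30 (adjusted p = 0.00311) and -2.01 ± 0.34 (0.000503). Atp2a1, the fast calcium pump gene, changed by -0.89 ± 0.20 (0.00636) and -1.27 ± 0.23 (0.000878), and Tnnt3, fast troponin T, by -0.68 ± 0.17 (0.00914) and -0.89 ± 0.19 (0.0024). Scaled by library totals, these genes were at -1.15, -0.58 and -0.37 at 2 weeks and -1.68, -0.93 and -0.55 at 16 weeks, and all 6 calls stood. Mylk2 thus changed in the direction of these genes, while Myl1 was called at neither time.

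Of the 3 fast heavy chain genes only Myh4, the fastest, was called, at -0.80 ± 0.27 at 2 weeks (adjusted p = 0.0477, lost in each refit without 1 library except that without IDUX.2Weeks replicate 4) and -1.70 ± 0.30 at 16 weeks (0.00076). Both developmental heavy chain genes rose at both times. Myh8, the perinatal form, rose by 2.50 ± 0.54 (0.0045) and 2.01 ± 0.60 (0.0203), and Myh3, the embryonic form, by 2.19 ± 0.72 (0.0452) and 2.51 ± 0.82 (0.0318). The Myh3 call was lost in 8 of 10 refits at 2 weeks (all but those without WT.2Weeks replicate 1 or IDUX.2Weeks replicate 4). At 16 weeks Myh3 and Myh8 were not called without IDUX.16Weeks replicate 1 or WT.16Weeks replicate 2 or 3, nor was Myh3 without WT.16Weeks replicate 4. None of the 3 slow heavy chain genes was called with DUX4 at either time, and of 9 slow fibre protein genes only Casq2, slow calsequestrin, was, at 0.80 ± 0.27 at 2 weeks (0.0498). That call stood only without IDUX.2Weeks replicate 4 or WT.2Weeks replicate 3 or 4.

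Among 9 genes of developing and regenerating fibres, 4 rose at 2 weeks and 5 at 16 weeks, and none fell. Of all genes tested, 11.2% and 14.1% were called higher. Ncam1, a neural adhesion molecule of young fibres, rose by 1.40 ± 0.26 (adjusted p = 0.00139) and 1.38 ± 0.29 (0.00256), and Chrnd, an acetylcholine receptor subunit gene, by 1.56 ± 0.32 (0.00298) and 2.19 ± 0.36 (0.000378). The fetal receptor subunit gene Chrng rose by 4.09 ± 1.11 at 16 weeks (0.0127), and Myog, the myogenin gene, by 2.09 ± 0.59 (0.0222) and 2.26 ± 0.66 (0.0185). The Myog call was lost at 2 weeks without IDUX.2Weeks replicate 2 or WT.2Weeks replicate 4 or 5, and at 16 weeks without IDUX.16Weeks replicate 1 or WT.16Weeks replicate 2 or 3. Medians of the list were 1.56 and 2.19, against -0.01 and 0.01 over all genes tested.

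**Figure D3:**
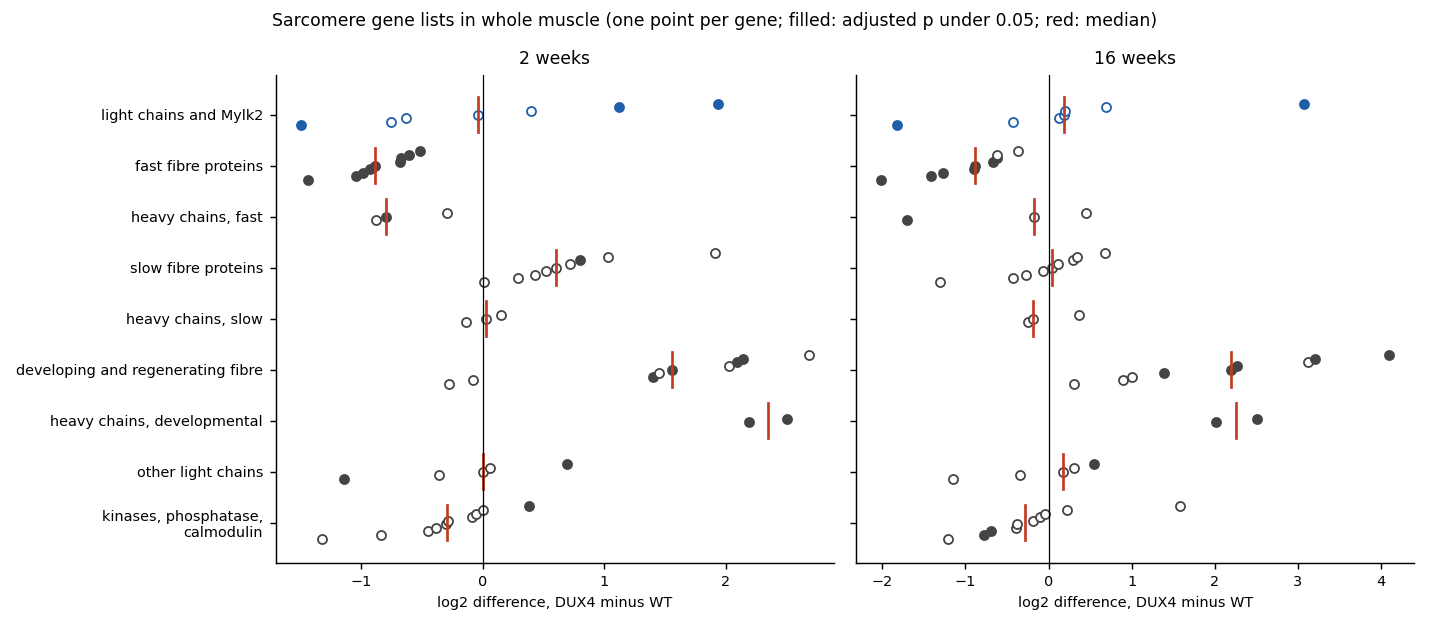
Log2 difference, DUX4 minus WT, of each gene in 9 lists at 2 and 16 weeks; filled points passed the adjusted p of 0.05 and red bars are list medians. The 7 light chain and kinase genes (top row) spread from -1.49 to 1.93 at 2 weeks and from -1.83 to 3.07 at 16 weeks, while the fast fibre protein genes lie below 0 and the developmental heavy chains above it.

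Outside the muscle forms, 5 of 6 other light chain genes were tested. At 2 weeks 1 was called higher and 1 lower, and at 16 weeks 1 higher. Of all genes tested, 11.2% and 14.1% were called higher and 6.47% and 12.5% lower at these times. Calls this few in lists of 6 and 10 genes are near those shares. At 2 weeks Myl9, the smooth muscle regulatory chain, changed by -1.14 ± 0.28 (adjusted p = 0.0106) and Myl12a, a non-muscle regulatory chain, by 0.70 ± 0.18 (0.0116). The 8 mural and smooth muscle markers summed to 403 to 784 CPM in WT.2Weeks and 216 to 612 CPM in IDUX.2Weeks. Their median log2 difference was -0.71, and none was called. The part of those cells in the Myl9 difference was not tested. At 16 weeks Myl12b rose by 0.54 ± 0.17 (0.0222), a call lost in 4 of 8 refits (without IDUX.16Weeks replicate 1 or 4 or WT.16Weeks replicate 1 or 2). Myl7, the atrial regulatory chain, had no count in any of the 32 libraries. Of 10 genes for other light chain kinases, the myosin phosphatase and calmodulin, 1 rose at 2 weeks, the phosphatase targeting subunit gene Ppp1r12a (0.38 ± 0.12, 0.0313), lost in 6 of 10 refits (IDUX.2Weeks replicate 1, 2 or 5, WT.2Weeks replicate 1, 2 or 3). Both called at 16 weeks were lower: Calm3, a calmodulin gene (-0.78 ± 0.17, 0.00262), and Ppp1cb, the catalytic subunit (-0.69 ± 0.15, 0.00361).

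Marker levels of fibres and of other cells were set beside these, to be read against the 11.2% and 14.1% of all genes called higher and the 6.47% and 12.5% called lower. Muscle fibre markers fell for 4 of 7 genes at both times, their sum being 59108 to 68018 CPM in WT.2Weeks and 32989 to 57681 CPM in IDUX.2Weeks, and 57767 to 77301 against 40695 to 50016 CPM at 16 weeks. Macrophage markers rose for 2 of 6 genes at 2 weeks (sum 25.2 to 74.0 against 55.5 to 131 CPM) and 1 of 6 at 16 weeks (15.6 to 58.9 against 41.1 to 108 CPM), and FAP markers rose for 3 of 8 and fell for 1 of 8 at 16 weeks (237 to 624 against 697 to 1344 CPM). Satellite cell markers rose for 1 of 5 genes at each time (41.3 to 48.5 against 64.5 to 90.7 CPM at 2 weeks, 38.2 to 106 against 55.7 to 68.7 CPM at 16 weeks). Single calls in lists of 5 or 6 genes are near those shares of all genes. The part of these in the light chain differences was not tested, and in whole muscle fewer cells of a type and less RNA per cell cannot be told apart. Cardiac muscle markers, which bear on Myl2, Myl3 and Myl4 as heart genes, summed to at most 3.81 CPM over 7 genes in any whole-muscle library, with Nppb at 0 in both WT groups.

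Set against Acta1, the skeletal actin gene, the fast pair differed. Myl1 counts were 22.9% to 28.8% of Acta1 counts in WT.2Weeks and 35.3% to 47.5% in IDUX.2Weeks, and these ranges did not overlap. At 16 weeks they were 8.41% to 28.3% in WT and 27% to 35.9% with DUX4. Mylpf was at 25.1% ± 6.80 of Acta1 in WT.2Weeks and 24.4% ± 2.87 in IDUX.2Weeks (SD, n = 5), and at 11.9% ± 2.60 and 12.2% ± 2.79 at 16 weeks (n = 4). These ratios describe unequal change only; Acta1 itself was called at 2 weeks (-0.59 ± 0.17, adjusted p = 0.0204) and not at 16 weeks (-0.46 ± 0.18, 0.0759).

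Between 2 and 16 weeks the slow pair rose and Mylpf fell, in WT and in DUX4 muscle alike in direction. These differences may be of time or of the muscles sampled, which cannot be told apart. In WT, 3 of 7 were called (2 higher, 1 lower) against 13.6% of genes (7.9% higher, 5.68% lower), with a median over the 7 of 0.36. With DUX4 again 3 of 7 were called (2 higher, 1 lower) against 7.25% (4.83% higher, 2.42% lower), with a median of 0.38. Over all genes tested the medians were 0.02 and -0.01. The WT and DUX4 values come from separate libraries. Myl2 rose by 3.76 ± 0.75 in WT (adjusted p = 0.00573; 54.0 ± 49.6 to 730 ± 165 CPM) and by 3.49 ± 0.74 with DUX4 (0.009; 71.0 ± 49.7 to 796 ± 272 CPM). Myl3 rose by 2.21 ± 0.39 in WT (0.00299; 111 ± 40.6 to 517 ± 162 CPM) and by 3.17 ± 0.40 with DUX4 (0.000647; 66.0 ± 31.8 to 595 ± 172 CPM). For both genes every 16-week library lay above every 2-week library.

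Mylpf changed by -1.34 ± 0.32 in WT (adjusted p = 0.0124; 7289 ± 2333 to 2872 ± 897 CPM) and by -1.14 ± 0.32 with DUX4 (0.0376; 4714 ± 1635 to 2144 ± 621 CPM). Its DUX4 call was lost in 5 of 9 refits without 1 library (IDUX.2Weeks replicate 4 or 5, IDUX.16Weeks replicate 1, 3 or 4; highest adjusted p 0.114). Against the low-Hoxd8 libraries alone, the WT values were 5.92 ± 0.81 for Myl2 (adjusted p = 0.00618), 1.90 ± 0.50 for Myl3 (0.108) and -1.09 ± 0.39 for Mylpf (0.197). Against the high-Hoxd8 libraries alone they were 3.13 ± 0.41 (0.000275), 2.45 ± 0.34 (0.000461) and -1.50 ± 0.27 (0.00281). With DUX4, Myl2 was at 4.96 ± 0.76 (0.013) against the low set and 2.98 ± 0.40 (0.00044) against the high set, and Myl3 at 3.89 ± 0.56 (0.0108) and 2.84 ± 0.35 (0.000181). Mylpf with DUX4 was at -1.57 ± 0.39 (0.0545) and -0.76 ± 0.27 (0.123), so its DUX4 value was larger against the low set and its WT value against the high set. Myl4 with DUX4 was called against the low set (2.22 ± 0.49, 0.0406) and was at 0.020 ± 0.49 against the high set (0.991). Myl1, Myl4, Myl6b and Mylk2 were called in neither genotype, at -0.68 ± 0.30, -0.58 ± 0.64, 0.82 ± 0.33 and 0.36 ± 0.27 in WT and -0.46 ± 0.29, 0.55 ± 0.59, 0.38 ± 0.32 and 0.026 ± 0.27 with DUX4. In WT, Myl1 was called without WT.16Weeks replicate 2 (-0.98, 0.0473) and Myl6b without WT.2Weeks replicate 3 (1.12, 0.0408).

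The slow heavy chains moved with the slow light chains, 3 of 3 rising in each genotype. Of all genes tested between the times, 7.9% were called higher in WT and 4.83% with DUX4. Myh7, the main slow heavy chain gene, rose by 3.77 ± 1.01 in WT (adjusted p = 0.0235, lost without WT.2Weeks replicate 1 or WT.16Weeks replicate 1) and by 3.44 ± 0.997 with DUX4 (0.0461, lost in each of 9 refits without 1 library). Of 9 slow fibre protein genes 7 rose in WT and 5 with DUX4, among them Tpm3, slow tropomyosin, at 3.01 ± 0.48 (0.00194) and 2.76 ± 0.48 (0.00351). None of the 9 fast fibre protein genes was called between the times in either genotype. Of the 3 fast heavy chain genes, Myh1 was lower in WT, from 13015 ± 3235 to 5718 ± 2364 CPM (-1.19 ± 0.34, 0.0294, lost without WT.2Weeks replicate 5 or WT.16Weeks replicate 2 or 3), and none was called with DUX4 (Myh1 -0.45 ± 0.33, 0.487).

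As a share of light chain counts per length, the slow forms were traces in the 2-week libraries and a minority in the 16-week libraries. Time and the muscles sampled cannot be told apart in this difference. Myl2 made up 0.599% ± 0.562 of the 2 regulatory genes in WT.2Weeks and 1.56% ± 1.31 in IDUX.2Weeks (SD, n = 5), and 18.9% ± 5.90 and 25.2% ± 10.8 at 16 weeks (n = 4). Myl3 made up 1.64% ± 0.539 of the 4 essential genes in WT.2Weeks and 1.07% ± 0.607 in IDUX.2Weeks, and 13.0% ± 6.35 and 11.4% ± 4.06 at 16 weeks. At each time the genotypes overlapped for both. Myl4 stayed a trace, at 0.145% ± 0.120 and 0.661% ± 0.479 at 2 weeks and 0.249% ± 0.324 and 1.08% ± 0.330 at 16 weeks, where WT replicate 1 (0.734%) lay inside the DUX4 range. With merged exon length the Myl4 shares were 0.0567% and 0.260% at 2 weeks and 0.0998% and 0.429% at 16 weeks. The Myl2 shares at 2 weeks were then 0.380% and 0.992%, and at 16 weeks 12.9% and 17.9%.

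**Figure D4:**
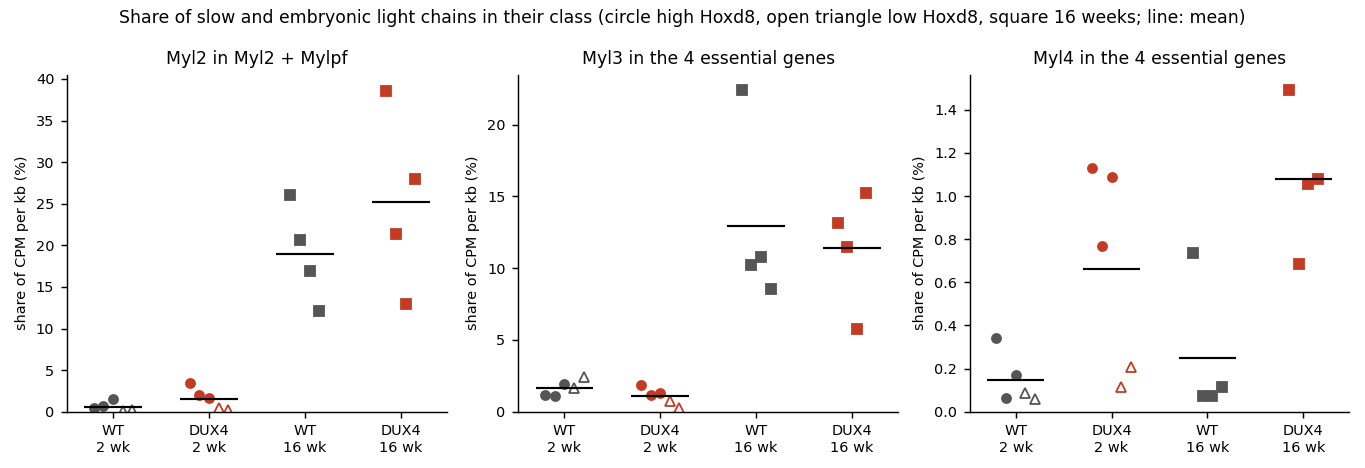
Share (% of CPM per kb) of Myl2 among the 2 regulatory genes and of Myl3 and Myl4 among the 4 essential genes, one point per whole-muscle library, with group means as lines. Myl2 and Myl3 are at most 3.45% and 2.38% at 2 weeks and at least 12.1% (5.75% for Myl3) at 16 weeks, and Myl4 is at most 1.49%.

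Genes with the most similar profiles over the 18 whole-muscle libraries were ranked by Pearson correlation of log2(CPM + 0.5) among the 9929 genes that averaged 5 CPM or more. The libraries share groups and Hoxd8 sets, so these values are a description. Nearest to Myl4 were Chrng (r = 0.97), Hes6, a Hes-family factor gene (0.95), and Mymk, which encodes the fusion protein myomaker (0.94). WT.2Weeks replicate 1 and WT.16Weeks replicate 1, the WT libraries with the most Myl4, also had the most Myog of their groups (30.1 and 34.0 CPM) and the most Chrng (6.93 and 3.32 CPM). Nearest to Myl2 were the slow troponin genes Tnnt1 (0.98) and Tnnc1 (0.98) and then Tpm3 (0.98), and nearest to Myl3 were Kank1 (0.93), the slow heavy chain gene Myh7b (0.91) and Gm29015 (0.90). Mylpf was nearest to the glycolytic gene Pgk1 (0.96), Bckdk (0.94) and Gm28437 (0.94), and Myl1 to Nrep (0.94), Cox7a1 (0.92) and Sypl2 (0.92). For Mylk2 they were Atg9a, Art1 and Gatc (0.97, 0.97 and 0.96), and for Myl6b Ift81, Mvp and Tbc1d8 (0.89, 0.87 and 0.86).

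In sorted cells, light chain transcripts of fibre type were found at low levels. Means of the fast pair Myl1 and Mylpf were highest in CD31DUX, those of Myl2, Myl3, Mylk2 and Myl6b in CD31WT and that of Myl4 in PDGWT. The 8 endothelial markers summed to 5611 to 6388 CPM in CD31WT and 3739 to 4605 in CD31DUX. The 8 FAP markers summed to 48151 to 60248 CPM in PDGWT and 62701 to 67172 in PDGDUX. FAP markers also summed to 4593 to 6932 CPM in CD31WT, overlapping the endothelial sum, and to 12572 to 14845 in CD31DUX. In CD31DUX they exceeded the endothelial sum, with 6 of 8 called higher, against 3.72% of all genes tested. These libraries were made with another kit than whole muscle, so levels are compared within them only.

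Myl1 was at 15, 5.31 and 15.6 CPM in CD31WT and at 80.8, 89.1, 38.0 and 69.1 CPM in CD31DUX. Each CD31DUX library lay above each CD31WT library. Myl1 rose by 2.53 ± 0.53 (adjusted p = 0.0112) and was the only one of the 6 genes tested to be called, against 5.07% of 17008 genes (3.72% higher, 1.35% lower), a call that stood in each refit without 1 library (highest 0.0368). Mylpf was at 8.50, 12.2 and 8.38 CPM in CD31WT and at 45.7, 27.1, 22.3 and 22.1 CPM in CD31DUX, also without overlap (1.59 ± 0.46, adjusted p = 0.0604), and DESeq2 called it (0.0112). The median difference over the 6 was 0.21, against -0.0047 over all genes tested.

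Other fibre transcripts were present in the same libraries. Counts of calls among them are to be read against the 3.72% of all genes tested that were called higher and the 1.35% called lower. Acta1 ran from 46.6 to 113 CPM in CD31WT and from 178 to 435 CPM in CD31DUX, and the 7 muscle fibre markers summed to 178 to 303 and 344 to 723 CPM, with none called. Myl1 was 11.4% to 14% of Acta1 in CD31WT and 18.6% to 26.3% in CD31DUX, whereas Mylpf was 7.51% to 26.3% and 7.67% to 12.5%. Of the 9 developing fibre genes 6 could be tested and 2 were called, both higher: Myog (0 to 0.112 CPM against 5.32 to 17.8 CPM) and Actc1, cardiac actin (0 to 0.224 against 5.57 to 14.5 CPM), with adjusted p of 0.00387 and 0.00115. The most abundant of the list, Myod1, which encodes a myogenic factor of satellite cells, was at 82.9 ± 19.5 CPM in CD31WT and 32.6 ± 7.57 CPM in CD31DUX, without overlap (-1.35 ± 0.40, 0.0666). Ncam1 was at 29.6 ± 0.525 and 17.2 ± 4.02 CPM, also without overlap (-0.78 ± 0.35, 0.25). The summed level of the list was 113 ± 20.0 CPM in CD31WT and 77.2 ± 17.3 CPM in CD31DUX. Of 9 fast fibre protein genes 2 rose, Tnnc2 by 1.54 ± 0.37 (0.0225) and Actn3 by 1.55 ± 0.39 (0.0284), calls lost in 4 and 5 of 7 refits without 1 library (both without CD31DUX replicate 1 or 2 or CD31WT replicate 2 or 3, and Actn3 without CD31WT replicate 1). The 5 red cell markers summed to 24187 ± 6554 CPM in CD31WT and 5442 ± 4016 CPM in CD31DUX, without overlap, and none was called. The part of fibre RNA, of FAP marker RNA and of red cell RNA in the Myl1 difference was not tested.

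The smooth muscle chain Myl9 and its kinase gene Mylk went the other way in CD31DUX, by -1.56 ± 0.22 (adjusted p = 0.000321) and -1.16 ± 0.21 (0.00339), as did the non-muscle essential chain Myl6 at -0.52 ± 0.14 (0.0419, lost in each of 7 refits without 1 library). Of 8 mural and smooth muscle markers 3 were lower and 1 higher, against 1.35% and 3.72% of all genes tested. The markers summed to 1227 to 1556 CPM in CD31WT and 638 to 910 CPM in CD31DUX. The part of those cells in the Myl9 and Mylk differences was not tested.

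In FAPs Myl1 was at 0.865, 1.49 and 5.0 CPM in PDGWT and at 12.4, 12.2, 6.26 and 14 CPM in PDGDUX. The groups did not overlap, the lowest PDGDUX library being close to PDGWT replicate 3. Myl1 rose by 2.17 ± 0.55 (adjusted p = 0.0498), the single call among 6 genes tested, against 3% of genes (1.23% higher, 1.77% lower; the higher share of calls was 41%, and 30.3% with library totals alone). The median difference was 1.07 over the 6 genes and -0.07 over all genes tested. It was lost in 5 of 7 refits without 1 library (PDGDUX replicate 1, 2 or 4, PDGWT replicate 1 or 2; highest adjusted p 0.178). Without PDGWT replicate 3 it was 3.25, and Mylpf was then called too (1.89, adjusted p = 0.0424). Acta1 ran from 4.20 to 27.8 CPM in PDGWT and from 26.5 to 54.4 CPM in PDGDUX (1.43 ± 0.54, adjusted p = 0.223). The muscle fibre markers summed to 42.2 to 83.8 and 42.5 to 74.4 CPM with 1 of 7 lower. That gene was Des, the largest part of the PDGWT sum, with means of 33.5 and 10.7 CPM (-1.64 ± 0.18, 0.00012). Among the rest Acta1, Ckm and Neb were higher and Ttn, Mb and Myot lower, none called. Red cell markers summed to means of 6021 CPM in PDGWT and 1493 CPM in PDGDUX, with overlap. The part of fibre RNA and of red cell RNA was not tested.

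Mylpf in FAPs was at 0.741, 1.83 and 5.11 CPM in PDGWT and at 4.98, 3.95, 6.45 and 3.77 CPM in PDGDUX (0.89 ± 0.48, adjusted p = 0.418). Myl9 was lower with DUX4 here as well (-1.28 ± 0.22, 0.00407). Of 8 mural and smooth muscle markers 2 were lower, Acta2, smooth muscle actin (-1.22 ± 0.24, 0.0109), and Myh11, the smooth muscle heavy chain (-1.85 ± 0.31, 0.00407), and Pdgfrb was higher, with a list median of -0.91. Of all genes tested in FAPs, 1.77% were called lower and 1.23% higher. The sum of the 8 markers was 438 to 448 CPM in PDGWT and 505 to 672 CPM in PDGDUX, opposite in direction to the list median. The part of mural and smooth muscle cells in the Myl9 difference was not tested. The test of a different DUX4 effect in FAPs than in CD31+ cells called none of the 6 genes, against 2.25% of genes (0.553% higher, 1.7% lower), with -0.36 ± 0.73 for Myl1 (0.904) and -0.70 ± 0.65 for Mylpf (0.725). None of the 6 had an unadjusted p under 0.05 there, and DESeq2 called none.

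**Figure D5:**
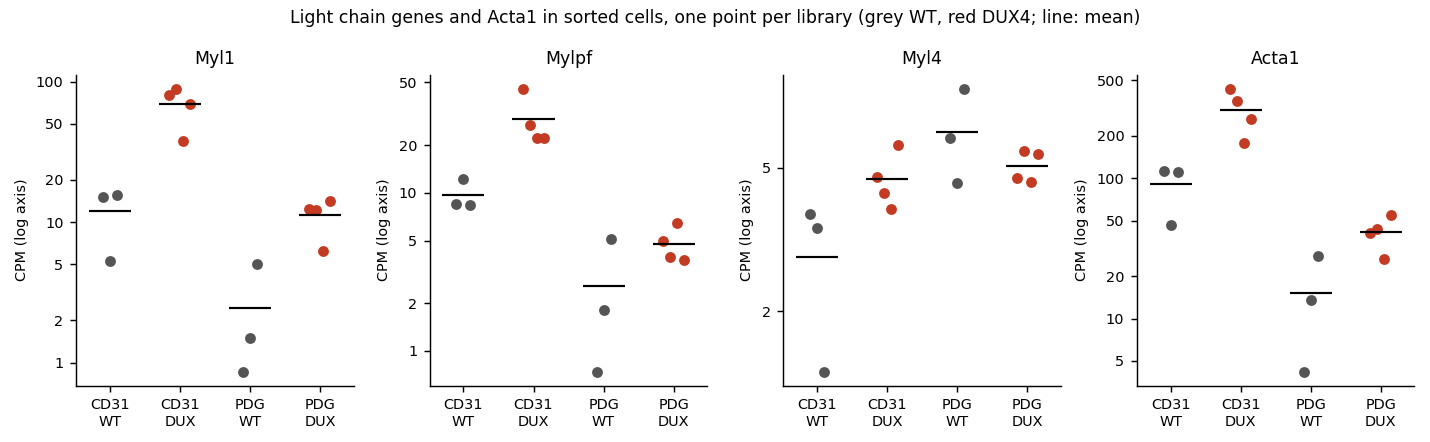
Level (CPM, log axis) of Myl1, Mylpf, Myl4 and Acta1 in the 14 sorted-cell libraries, one point per library, with group means as lines. Myl1, Mylpf and Acta1 are highest in CD31DUX, and Myl4 lies between 1.36 and 8.29 CPM in every library.

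The group means of Myl4 in sorted cells had another order than those of the adult fibre forms, and no Myl4 difference was called there. At these low levels Myl4 may also hold reads of the antisense and pseudogene models that overlap it. It was at 3.73, 3.41 and 1.36 CPM in CD31WT, 4.72, 4.26, 3.84 and 5.78 in CD31DUX, 6.05, 4.53 and 8.29 in PDGWT and 4.70, 5.56, 4.55 and 5.48 in PDGDUX. PDGWT lay above CD31WT in every library (1.15 ± 0.43, adjusted p = 0.0534), and the DUX4 differences were 0.71 ± 0.41 in CD31+ cells (0.393) and -0.31 ± 0.40 in FAPs (0.798). Per length, Myl4 made up 63.9% to 85.2% of the sum of Myl1, Myl3, Myl4 and Myl6b in PDGWT. In PDGDUX it made up 30.2% to 45.5%, ranges that did not overlap, as Myl1 differed between these groups. With the merged length of all exons in place of the longest coding transcript, the means went from 75.1% to 55.2% in PDGWT and from 35.1% to 17.6% in PDGDUX. The non-muscle essential chain gene Myl6 is not in that sum. It was far above Myl4, at 349 ± 47.2 CPM in PDGWT and 361 ± 61.3 in PDGDUX.

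Between the WT sorted types, 4 of 6 genes tested were lower in FAPs than in CD31+ cells, against 31.1% of genes (16.7% higher, 14.5% lower; the higher share of calls was 53.6%, and 35.4% with library totals alone), and the median was -2.39 over the 6 and -0.02 over all genes tested. Myl1 changed by -2.27 ± 0.57 (adjusted p = 0.00699) and Mylpf by -1.91 ± 0.50 (0.00791). Mylk2 was at 0.309, 0 and 0 CPM in PDGWT and at 3.01, 0.895 and 1.59 in CD31WT (0.0384), and Myl3 at 0.185, 0 and 0.220 CPM against 1.66, 1.06 and 3.31 (0.0486). The Mylk2 call was lost in 4 of 6 refits without 1 library (CD31WT replicate 1 or 3, PDGWT replicate 2 or 3) and the Myl3 call in all 6. The same contrast had 4 of 7 muscle fibre markers lower in FAPs (178 to 303 CPM summed in CD31WT, 42.2 to 83.8 in PDGWT).

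The remaining genes had few counts in sorted cells. Myl2 was at most 1.44 CPM, Mylk2 at most 3.01 CPM and Myl6b at most 0.895 CPM, which left Myl6b outside the low-count filter. Myl3 had no count in PDGDUX replicates 1, 3 and 4 and in CD31DUX replicate 3. A count of 0 allows up to 3 counts, which is 0.145 to 0.494 CPM over the 32 libraries, and covers counting error only.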

How the data were processed

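RNA-seq of 18 whole-muscle and 14 sorted-cell libraries gave 1 table of deposited expected counts per gene and library, made by the authors with CASAVA 1.8 and Salmon 0.6.0 on mm10, per the submitters' processing notes. The gene annotation and strand setting were not given in sources used here. Read pairs of 50 bases were counted, per the labels. Expected counts were rounded. edgeR 4.0.16 (R 4.3.3) was used with filterByExpr (minimum count 10), TMM, robust quasi-likelihood F tests and Benjamini-Hochberg adjustment over all genes tested, with whole-muscle and sorted libraries fitted apart because their kits differed. SE is the log2 difference over the root of F. All 121 listed genes matched by symbol in a GENCODE annotation of GRCm38, and upstream sequences came from RefSeq. No 2 libraries were identical. The scripts were tested on simulated data. Alternatives were DESeq2 1.42.0, other scalings and filters (minimum count 50), other sets of libraries and other gene lengths. The members and lists were chosen with earlier results of these data known. All 7 members are named, with up to 4 called genes per list and comparison (smallest p first) and the 3 genes of most similar profile. The human DUX4 transgene was not analysed here.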

Additional observations from a re-analysis of the deposited data

Results flagged for a closer look

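Within groups of 4 or 5, the highest or lowest library was compared with the rest for each of the 7 genes (42 comparisons, of which chance alone would single out about 5%), and 3 libraries stood far from the others. Myl4 in WT.16Weeks replicate 1 was at 12.9 CPM, against 3.90 to 5.35 CPM in the other 3. Mylk2 in PDGDUX replicate 2 was at 1.18 CPM, against 0 to 0.171 CPM. Myl3 in PDGDUX replicate 2 was at 0.107 CPM with no count in the other 3, which is below what a count of 0 allows.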

How the results depend on the processing

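No paired analysis was possible because the labels give no replicate numbers, and those used here follow accession order. Mylk2 and Myl4 at 16 weeks kept their calls in every alternative run. The number of the 7 genes called at 2 weeks was 3 and went to 1 with only the groups compared and to 0 with only the low-Hoxd8 libraries, and from 1 to 4 without 1 library. In CD31+ cells it was 1 and became 2 with DESeq2, without the low-count filter and with only the groups compared. In FAPs it was 1 and became 0 with library totals alone, without the filter and with only the groups compared, and ran from 0 to 2 without 1 library; between WT sorted types it was 4 and ran from 2 to 3 without 1 library. The causes were not tested.

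Reversals were among uncalled values. Library totals alone turned Myl1 at 2 weeks to 0.28. The low-Hoxd8 libraries alone gave 0.18 for Myl1 and 0.030 for Mylpf at 2 weeks and, added after the data were seen, -0.020 for Myl1 and -0.48 for Mylpf in the interaction with time, 0.44 for Myl4 between WT times and -0.32 for Mylk2 between DUX4 times (-0.0017 with a term for the sets). Without WT.16Weeks replicates 1 and 4 the 16-week differences were -0.24 for Myl1, -0.12 for Myl3 and -0.13 for Myl2, and the interaction was -0.20 for Myl1. Without 1 library, the ranges were -0.14 to 0.017 for Myl1 and -0.027 to 1.05 for Myl2 at 2 weeks, -0.11 to 0.47 and -0.094 to 0.31 at 16 weeks, and -0.074 to 0.51 and -0.93 to 0.15 in the interaction. They were -1.11 to 0.13 for Myl4 between WT times, -0.19 to 0.19 for Mylk2 between DUX4 times, -0.57 to 0.31 for Mylk2 in CD31+ cells and -0.18 to 5.54 in FAPs, and -0.77 to 0.71 for Myl1 and -1.14 to 0.30 for Mylpf in the difference between sorted types.

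Where an arm had 1 library fewer, the spread was taken from all groups of the fit. Low counts in sorted cells limit Myl2, Myl3, Myl6b and Mylk2 there, most in FAPs. Over all genes, calls at 2 weeks went from 2717 to 4685 with library totals alone, 1756 without IDUX.2Weeks replicate 2 and 16 with the low-Hoxd8 libraries. In the interaction with time they went from 46 to 466 with DESeq2, 137 with the set term, 22 with library totals, 19 without the filter and 2 with the low-Hoxd8 libraries. Between WT times they went from 2091 to 1305 without the filter, 514 with only the groups compared, 985 without WT.16Weeks replicates 1 and 4 and 162 with the low-Hoxd8 libraries, and between DUX4 times from 1116 to 481 with the latter. DESeq2 took them from 863 to 1460 in CD31+ cells, from 510 to 1038 in FAPs and from 383 to 824 in the difference between these.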
